A study of Mus musculus with 9 samples.

Results

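The 9 genes described here are markers of radial glia, the elongated progenitor cells of the embryonic cortical wall, and they were chosen by name: Nes (ENSMUSG00000004891_at), Vim (ENSMUSG00000026728_at), Fabp7 (ENSMUSG00000019874_at), Slc1a3 (ENSMUSG00000005360_at), Prom1 (ENSMUSG00000029086_at), Ptprz1 (ENSMUSG00000068748_at), Tnc (ENSMUSG00000028364_at), Ednrb (ENSMUSG00000022122_at) and Dbi (ENSMUSG00000026385_at). The choice was made with earlier results of these data known. All 9 genes were present among the 12188 genes of the deposited table, which lists genes by Ensembl identifier alone. Their expression was compared between 5 Dicer knockout embryos (knockouts 5, 7, 9, 10 and 11) and 4 control embryos (controls 1 to 4) of strain C57Bl6/J. Each embryo gave 1 array of total RNA from the dorsal telencephalon at E13.5. Dicer is the ribonuclease that cuts microRNA precursors to their mature form, and per the labels the knockout tissue was depleted of microRNAs while the control tissue was not. The deletion was conditional, and no source used here names the Cre line that drove it. The control titles begin with HTZ, so the controls were not taken to be wild type. All 5 knockouts were labelled male, as were controls 3 and 4, whereas controls 1 and 2 were labelled female. These sex labels could not be checked here, since no sex-linked gene is named in the table. With all 4 controls, no gene was called between the control males and the control females. Embryos were in part littermates, but no source used here says which of them shared a litter.

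Radial glia span the wall of the developing cortex, with an apical endfoot at the ventricle and a basal process to the pial surface. They divide at the ventricle, give rise to intermediate progenitors and neurons, and serve as the track along which young neurons migrate. The genes fall into structural filaments (Nes, Vim), small lipid-binding proteins (Fabp7, Dbi), proteins of the cell membrane (Slc1a3, Prom1), and the matrix protein Tnc with the receptors Ptprz1 and Ednrb. None is exclusive to these cells: Vim, for one, is also made by blood vessel and meningeal cells. In tissue RNA, fewer cells of a type and less RNA per cell cannot be told apart. The table pairs no other identifier with a gene symbol, so the level of Dicer itself and markers of other cell types were not analysed here, and their part in the differences below was not tested.

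Tnc, Ptprz1, Vim, Prom1 and Slc1a3 were higher in the knockouts, by between 1.19-fold (Slc1a3) and 2.06-fold (Tnc). The threshold was an adjusted p of 0.05 in a two-sided limma fit, with the Benjamini-Hochberg adjustment taken over all 12188 genes. Thus 5 of the 9 genes were called higher, where 11% of all genes were, and 0 were called lower, where 13.6% of all genes were. The genes were chosen with earlier results of these data known, so these counts are a description and were not tested as a set. Ednrb (higher) and Dbi (lower) did not pass, with adjusted p of 0.0604 and 0.0782, and Nes and Fabp7 were farther from the threshold. The median difference was 0.26 log2 units over the 9 genes and -0.02 over all genes. At 4 of the 9 genes (Tnc, Vim, Prom1 and Slc1a3) every knockout value lay above every control value, a separation found at 9.99% of all genes. The array medians lay between 7.61 and 7.75 on the log2 scale. Control 4 stood apart over the whole table, with a root mean square distance of 0.399 to 0.421 log2 units from the other controls, against 0.153 to 0.21 among controls 1 to 3.

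**Figure D1:**
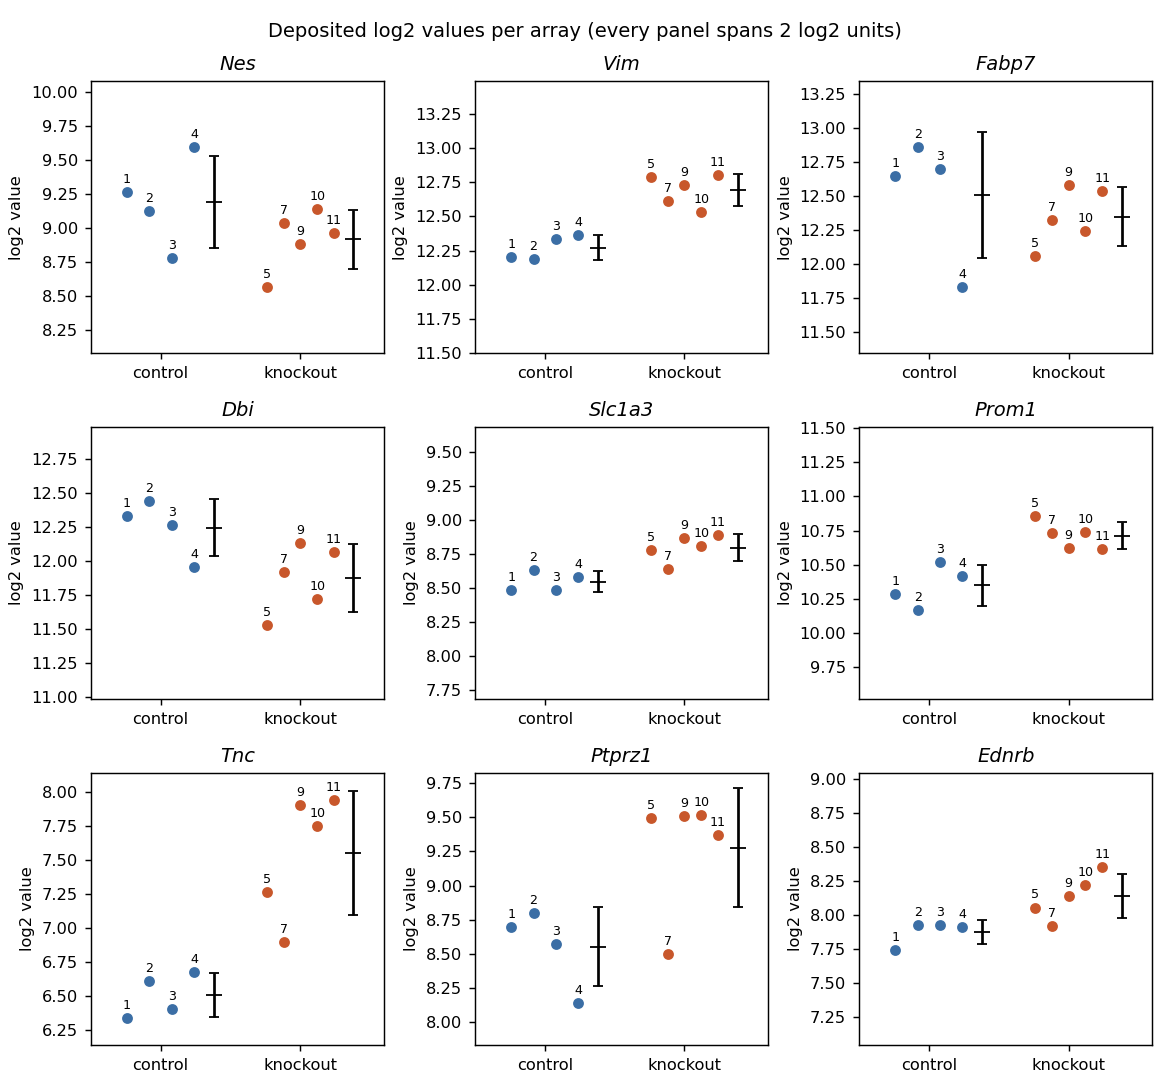
Deposited log2 value of each gene on each array, with the replicate number above each point; horizontal and vertical black bars give the group mean and SD (4 controls in blue, 5 knockouts in orange). The groups are apart for Vim, Slc1a3, Prom1 and Tnc, knockout 7 lies among the controls for Ptprz1, and control 4 is the lowest array for Fabp7.

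**Figure D2:**
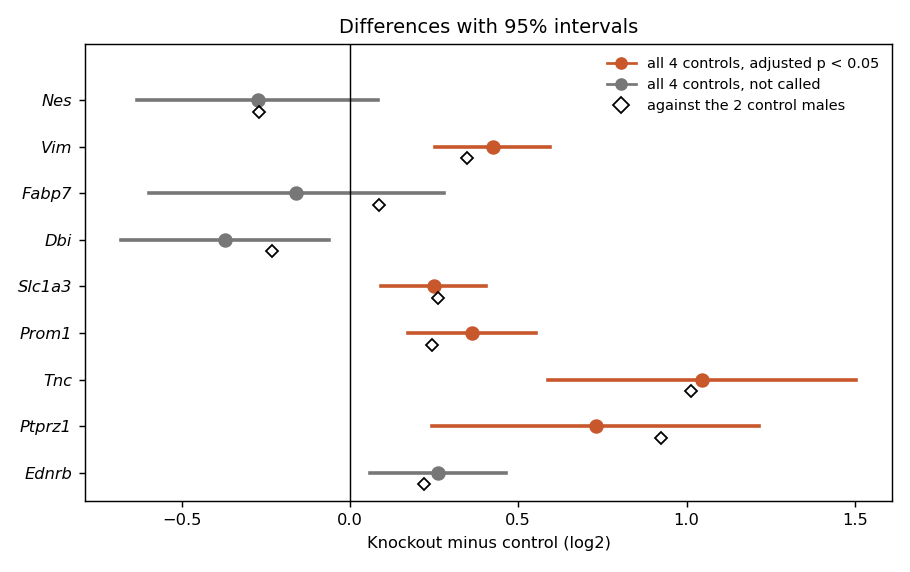
Knockout minus control difference of each gene on the log2 scale with its 95% interval from the limma fit, orange where the adjusted p was under 0.05; open diamonds give the difference from the 2 control males alone. Of the 9 genes, 6 lie to the right of 0 against all controls, and Fabp7 crosses 0 when only control males are used.

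Of the 2 intermediate filament genes, Vim was called higher and Nes was not called. Vim encodes vimentin, the main filament of radial processes, and Nes encodes nestin, a filament protein of neural progenitors that assembles together with vimentin. Vim measured 12.79, 12.61, 12.73, 12.54 and 12.80 log2 units in knockouts 5, 7, 9, 10 and 11, and 12.20, 12.19, 12.33 and 12.36 in controls 1 to 4. The lowest knockout was therefore above the highest control. The mean was 12.70 ± 0.12 (SD, n = 5) against 12.27 ± 0.09 (SD, n = 4), a difference of 0.42 log2 units (SE 0.08, 95% interval 0.25 to 0.60) with a limma adjusted p of 0.00433. Nes measured 8.57, 9.03, 8.88, 9.14 and 8.96 in knockouts 5, 7, 9, 10 and 11, and 9.26, 9.12, 8.78 and 9.59 in controls 1 to 4. These groups overlapped, since control 3 lay below 4 of the 5 knockouts. The mean of Nes was 8.91 ± 0.22 (SD, n = 5) against 9.19 ± 0.34 (SD, n = 4), a difference of -0.27 (SE 0.16, 95% interval -0.63 to 0.08) that did not pass (limma adjusted p = 0.248). Without control 4 it was -0.14 (limma adjusted p = 0.517) and without control 3 it was -0.41 (0.0751). Whether Vim and Nes differed in response was asked from the log2 difference between them on each array, for 1 of 3 pairs of genes picked after their values were seen. This difference was 0.70 log2 units larger in the knockouts (two-sided exact permutation p = 0.0317, Benjamini-Hochberg p over the 3 pairs = 0.0952), with knockout values from 3.40 to 4.23 and control values from 2.77 to 3.55. So the difference in response between the 2 filament genes did not pass after adjustment.

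Fabp7 encodes the brain lipid-binding protein, a fatty acid carrier that marks radial glia, and Dbi encodes the acyl-CoA-binding protein, which is also the precursor of peptides that act on GABA receptors. Fabp7 measured 12.06, 12.32, 12.58, 12.24 and 12.54 in knockouts 5, 7, 9, 10 and 11, and 12.65, 12.86, 12.70 and 11.83 in controls 1 to 4. Controls 1 to 3 lay above all knockouts, and control 4 lay below all of them. The difference of means was -0.16 log2 units (SE 0.20, 95% interval -0.60 to 0.28, limma adjusted p = 0.603). Control 4 decided this value: without it the difference was -0.39 with an adjusted p of 0.0393 in the same fit, and against the 2 control males alone it was 0.085 (limma adjusted p = 0.825). No direction is therefore given for Fabp7.

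Dbi measured 11.53, 11.92, 12.13, 11.72 and 12.06 in knockouts 5, 7, 9, 10 and 11, and 12.33, 12.44, 12.26 and 11.95 in controls 1 to 4. Controls 1 to 3 were again above every knockout, while control 4 lay among the knockouts. The mean was 11.87 ± 0.25 (SD, n = 5) against 12.24 ± 0.21 (SD, n = 4), a difference of -0.37 log2 units (SE 0.14, 95% interval -0.68 to -0.06) with a limma adjusted p of 0.0782. Without control 4 the difference was -0.47 (limma adjusted p = 0.0258), whereas against the 2 control males it was -0.23 (limma adjusted p = 0.366). The knockouts stood in the same order for both genes: knockout 5 was lowest, followed by knockouts 10, 7, 11 and 9.

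Slc1a3 encodes the glutamate transporter GLAST, which radial glia and later astrocytes carry, and Prom1 encodes prominin-1, a protein of membrane protrusions at the apical surface of neural progenitors. Slc1a3 measured 8.78, 8.64, 8.87, 8.81 and 8.88 in knockouts 5, 7, 9, 10 and 11, and 8.48, 8.63, 8.49 and 8.58 in controls 1 to 4. The groups were barely apart, since knockout 7 (8.639) lay just above control 2 (8.634). The mean was 8.80 ± 0.10 (SD, n = 5) against 8.55 ± 0.07 (SD, n = 4), a difference of 0.25 (SE 0.07, 95% interval 0.09 to 0.41) with a limma adjusted p of 0.0269. The call was lost when control 1 or 3 or knockout 9, 10 or 11 was left out (adjusted p from 0.0529 to 0.0843 in those limma fits). Slc1a3 and Fabp7 were the second of the 3 pairs, and the log2 difference between them was 0.41 larger in the knockouts (two-sided exact permutation p = 0.0952, adjusted over the 3 pairs 0.143). Knockout values of this difference ran from -3.72 to -3.28 and control values from -4.22 to -3.25. The highest control value was that of control 4, and the pair was not tested without it.

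Prom1 measured 10.85, 10.73, 10.62, 10.74 and 10.61 in knockouts 5, 7, 9, 10 and 11, and 10.29, 10.17, 10.52 and 10.42 in controls 1 to 4. All knockouts were higher than all controls, with control 3 nearest to them. The mean was 10.71 ± 0.10 (SD, n = 5) against 10.35 ± 0.15 (SD, n = 4), a difference of 0.36 (SE 0.09, 95% interval 0.17 to 0.55) with a limma adjusted p of 0.0128. Within the knockouts the order of Prom1 ran against that of Fabp7 and Dbi: knockout 5 was the highest for Prom1 and the lowest for both others, and only 1 of the 10 pairs of knockouts stood in the same order for Prom1 as for Fabp7.

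Tnc had the largest difference of the 9 genes. It was also the dimmest of them in both groups, and it lay among the dimmest 50% of all genes. It encodes tenascin C, a glycoprotein of the extracellular matrix around progenitors. It measured 7.26, 6.90, 7.90, 7.75 and 7.94 in knockouts 5, 7, 9, 10 and 11, and 6.34, 6.61, 6.40 and 6.67 in controls 1 to 4. Knockouts 9, 10 and 11 were high, knockout 7 was nearest to the controls, and no values overlapped. The mean was 7.55 ± 0.45 (SD, n = 5) against 6.51 ± 0.16 (SD, n = 4), which is a difference of 1.04 log2 units (SE 0.21, 95% interval 0.59 to 1.5), or 2.06-fold (limma adjusted p = 0.00592). Of all genes in the table, 0.591% had a difference of at least this size in either direction.

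Ptprz1 encodes a receptor-type tyrosine phosphatase whose extracellular part binds pleiotrophin and tenascins, Tnc among them. It measured 9.50, 8.50, 9.51, 9.52 and 9.37 in knockouts 5, 7, 9, 10 and 11, and 8.69, 8.80, 8.57 and 8.14 in controls 1 to 4. Knockouts 5, 9, 10 and 11 were close to each other and above every control, whereas knockout 7 lay below controls 1 to 3. The mean was 9.28 ± 0.44 (SD, n = 5) against 8.55 ± 0.29 (SD, n = 4), a difference of 0.73 log2 units (SE 0.22, 95% interval 0.24 to 1.22), or 1.66-fold (limma adjusted p = 0.0352). Without knockout 7 the difference was 0.92 (limma adjusted p = 0.00227), and without control 4, the lowest array, it was 0.59 (0.0682). The call was lost without control 1, 3 or 4 and without knockout 5, 9, 10 or 11, each left out in turn (adjusted p from 0.0625 to 0.0768 in those fits). The difference in response between Tnc and Ptprz1, 0.32 log2 units more for Tnc, did not pass (two-sided exact permutation p = 0.286, also 0.286 after adjustment over the 3 pairs).

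Ednrb encodes the endothelin receptor type B, a G protein-coupled receptor of glia and their precursors that is also found on other cells, such as those of blood vessels. It measured 8.06, 7.92, 8.14, 8.22 and 8.35 in knockouts 5, 7, 9, 10 and 11, and 7.74, 7.93, 7.92 and 7.91 in controls 1 to 4. The groups touched only at knockout 7, which lay at the level of controls 2 to 4. The mean was 8.14 ± 0.16 (SD, n = 5) against 7.88 ± 0.09 (SD, n = 4), a difference of 0.26 (SE 0.09, 95% interval 0.06 to 0.46) that missed the threshold (limma adjusted p = 0.0604). It passed after quantile normalization (adjusted p = 0.0342) and after subtraction of the array medians (0.0331), which moved the difference to 0.28 in both cases. It passed in 1 of the 9 fits with 1 array left out and in 5 of 9 other alternatives, and with sex as a covariate its adjusted p was 0.231.

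**Figure D3:**
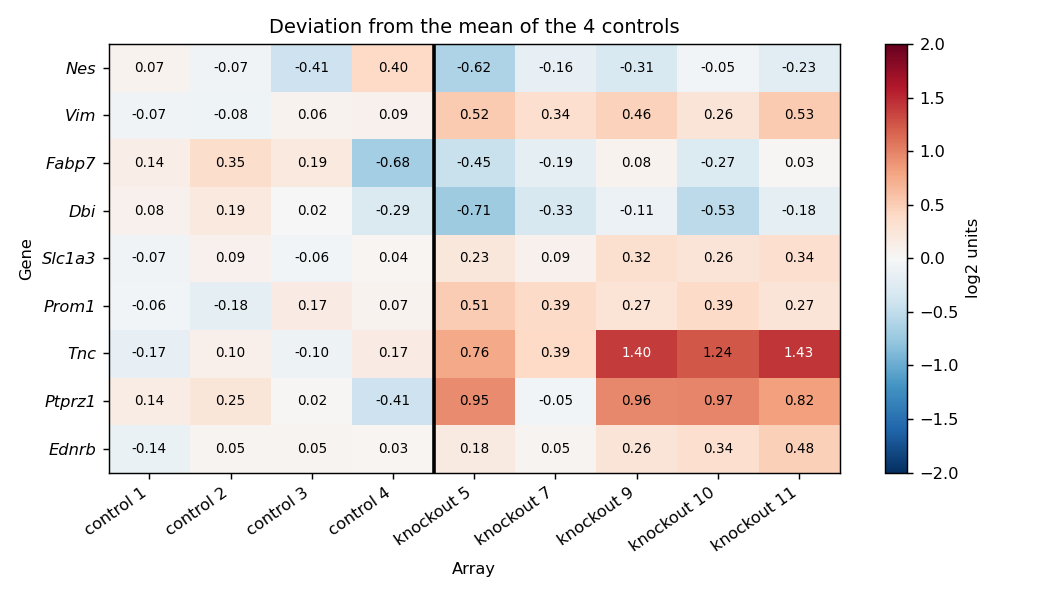
Deviation of each array from the mean of the 4 controls, in log2 units, for each gene (rows) and array (columns); the black line divides controls from knockouts. Tnc is highest in knockouts 9, 10 and 11, Ptprz1 is high in knockouts 5, 9, 10 and 11, knockout 7 deviates least of the knockouts for both, and control 4 deviates by -0.68 for Fabp7.

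In 2 of the 36 pairs of these genes the knockout embryos stood in the same order for both genes. Slc1a3 and Tnc ranked the knockouts identically, with knockout 7 lowest, then 5, 10, 9 and 11, and Ednrb kept that order in 9 of 10 pairs of knockouts. Fabp7 and Dbi also ranked them identically, but with knockout 5 lowest. After the mean of its group was subtracted from each array, Slc1a3 and Tnc had Pearson's r of 0.91 over the 9 arrays, and 0.75 without the 2 arrays farthest from the median of Slc1a3. Fabp7 and Dbi had 0.88, and 0.82 without the 2 arrays farthest from the median of Fabp7. These pairs stood out among 36 after their values were seen and all genes share the same arrays and scaling, so the values are a description and carry no p. Over the 9 arrays, group differences included, the gene of the table most like each of the 9 had Pearson's r of 0.950 (Ednrb) to 0.989 (Slc1a3). The 2 highest were ENSMUSG00000045180 for Slc1a3 and ENSMUSG00000028986 for Fabp7 (r of 0.984), which the files do not pair with a name. Between 52 (Ednrb) and 262 (Tnc) genes of the table had an r over 0.9 with 1 of the 9. Choice by r over both groups favours genes that share a group difference, so these values are a description.

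**Figure D4:**
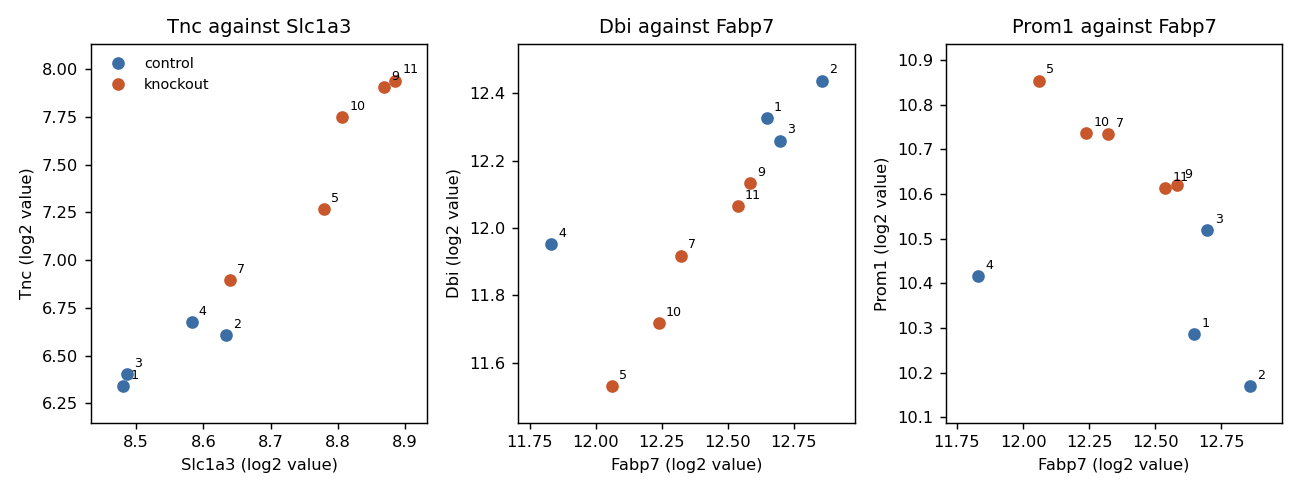
Log2 values of Tnc against Slc1a3, Dbi against Fabp7 and Prom1 against Fabp7, 1 point per array with its replicate number (controls in blue, knockouts in orange). The knockouts line up in the same order for the first and the second pair and in nearly the reverse order for the third, and control 4 lies off the line of the other arrays in both panels with Fabp7.

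The promoters of Slc1a3 and Tnc are shown because both genes ranked the knockout embryos alike, and that of Fabp7 because it ranked them otherwise. Sequences are those of RefSeq on GRCm38.p6, from 250 bases before to 50 bases after the annotated gene start, and the first window listed was taken for Tnc, which has more than 1. Windows of 8 of the genes, matched by symbol, were searched. The windows, printed 5′ to 3′ on the gene's strand, are chr15:8710758-8711057 (minus strand), chr4:64046966-64047265 (minus strand) and chr10:57784673-57784972 (plus strand). Capitals mark matches on either strand to 4 short motifs: TGGGAA, the core bound by the Notch effector RBPJ, ATGCAAA, the core of the octamer bound by POU factors, ACAAAG, a core of SOX sites, and the CCAAT box.
Slc1a3: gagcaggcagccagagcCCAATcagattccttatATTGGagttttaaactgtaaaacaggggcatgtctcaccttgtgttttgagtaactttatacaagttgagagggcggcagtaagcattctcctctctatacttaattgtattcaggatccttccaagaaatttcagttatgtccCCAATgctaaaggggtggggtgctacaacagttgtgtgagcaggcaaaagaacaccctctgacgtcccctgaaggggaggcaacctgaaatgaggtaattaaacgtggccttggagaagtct
Tnc: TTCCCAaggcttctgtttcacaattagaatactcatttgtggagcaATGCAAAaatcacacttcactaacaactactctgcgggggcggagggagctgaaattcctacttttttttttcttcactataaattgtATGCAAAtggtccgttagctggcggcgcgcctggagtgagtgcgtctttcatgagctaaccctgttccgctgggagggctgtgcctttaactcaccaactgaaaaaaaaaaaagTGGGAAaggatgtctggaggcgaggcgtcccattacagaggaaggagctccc
Fabp7: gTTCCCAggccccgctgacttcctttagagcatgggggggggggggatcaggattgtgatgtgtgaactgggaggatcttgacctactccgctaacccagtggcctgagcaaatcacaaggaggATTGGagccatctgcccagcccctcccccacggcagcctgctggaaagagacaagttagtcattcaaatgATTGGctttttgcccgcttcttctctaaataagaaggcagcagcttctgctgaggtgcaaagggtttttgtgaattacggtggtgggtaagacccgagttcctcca

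No matches overlapped in these windows. The Tnc window held 2 matches to TGGGAA and 2 to ATGCAAA, and that of Slc1a3 held neither but 3 CCAAT boxes. Fabp7 had 1 match to TGGGAA and 2 CCAAT boxes. The windows of Slc1a3 and Tnc, which ranked the embryos alike, had no motif of those searched in common. Whether these genes share a regulator was not tested. Among all 32851 windows in the table, 25.6% held TGGGAA, 4.63% held ATGCAAA, 18.7% held ACAAAG and 37.4% held CCAAT. Of the 8 genes searched, 3 (Fabp7, Prom1 and Tnc) had a window with TGGGAA, 1 (Tnc) with ATGCAAA, 0 with ACAAAG and 5 (Ednrb, Fabp7, Prom1, Slc1a3 and Vim) with CCAAT. A match of letters does not show that a factor binds there.

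Since every knockout was labelled male, the genes were also set against the 2 control males in a limma fit of 3 groups with 1 shared spread. Tnc (1.01 log2 units, SE 0.27, limma adjusted p = 0.0461) and Vim (0.35, SE 0.09, limma adjusted p = 0.0443) were called higher, so that 2 of the 9 genes passed where 4.82% of all genes did, and 0 were called lower where 5.72% of all genes were. Ptprz1 had a difference of 0.92 with an adjusted p of 0.0556 in this limma fit. Slc1a3 (0.26) and Prom1 (0.24) kept their direction with adjusted p of 0.0904 and 0.104 in the same limma fit. These values rest on control 4 as 1 of 2 arrays. With control 3 as the lone control male the differences were 1.15 for Tnc, 0.36 for Vim, 0.71 for Ptprz1 and 0.14 for Nes. With control 4 as the lone control male they were 0.88, 0.33, 1.14 and -0.68. In these fits the lone array was assumed to vary like the other groups, so only the differences are given. In a limma fit of the 7 arrays labelled male alone, 0 of the 9 genes were called where 2.66% of all genes were, and the smallest adjusted p among them was that of Tnc, 0.0755. Control males and control females were compared 2 against 2 in the fit of 3 groups. By an unadjusted limma p under 0.05 they differed at 0 of the 9 genes and at 869 of all 12188 genes. The 0 of 9 is therefore not read as a result about these genes. By adjusted p 0% of all genes were called. By adjusted p no gene thus told the labelled sexes of the controls apart, and whether these labels hold was not tested. The smallest limma adjusted p over all genes in this comparison was 0.6765. Without control 4 this comparison called 0 genes and without control 3 it called 977. The lowest unadjusted limma p among the 9 was that of Prom1, 0.0517, with a mean of 10.47 in control males and 10.23 in control females.

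Vim, Prom1 and Tnc passed in each of the 9 limma fits that left out 1 array. Slc1a3 passed in 4 of these 9 and Ptprz1 in 2. An exact permutation test on the means gave the smallest p possible with 5 against 4 arrays, 0.0159 (two-sided), for Tnc, Vim, Prom1 and Slc1a3. This p restates that their groups did not overlap, since every gene with such groups receives it. At 9.99% of all genes every knockout lay above every control. For Ptprz1 the same test gave 0.0635, and for Ednrb and Dbi it gave 0.0476 each, none of them adjusted.

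**Figure D5:**
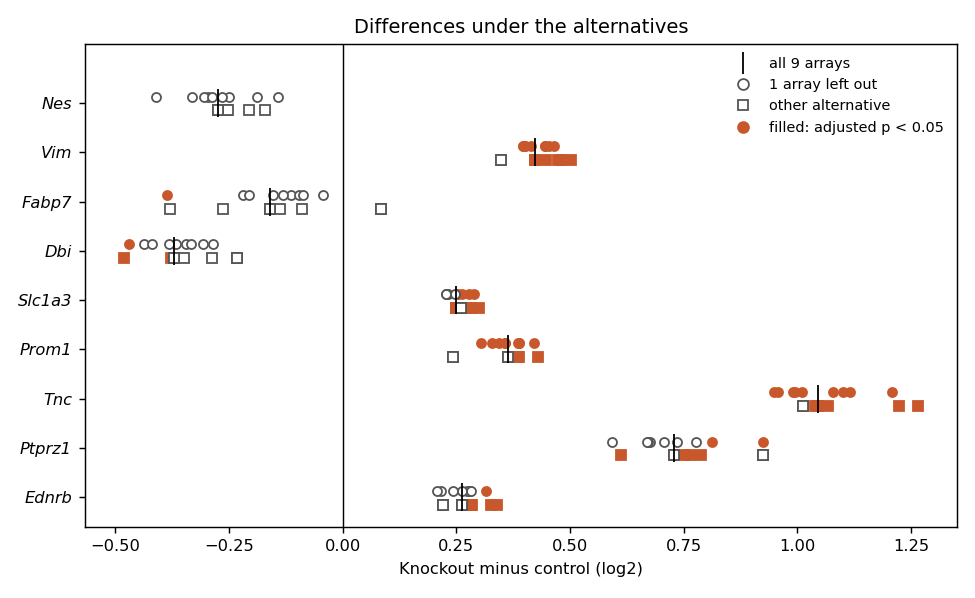
Knockout minus control difference of each gene on the log2 scale with all 9 arrays (black bar), with each array left out in turn (circles) and under the other alternatives (squares); filled symbols have an adjusted p under 0.05. Vim, Prom1 and Tnc are filled in all fits with 1 array left out, and Fabp7 has values on both sides of 0.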

How the data were processed

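RNA of 9 embryos was hybridised to 1-colour Affymetrix arrays, 1 per embryo. The authors deposited 1 log2 value per gene and array, made with the affy package per the submitters' processing notes. Version, background correction, normalization, array type and genome build are not stated in any source used here. Background signal can shrink the changes of dim genes, and no detection call came with the values. The number of embryos limits the precision.

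Symbols of the 9 genes came with the rule that chose them. The RefSeq table (GRCm38.p6) holds 0 Ensembl identifiers, so the gene lists fixed by symbol (Dicer and cell type markers included) could not be matched or tested. One promoter is not reported here. Groups, sexes and replicate numbers came from the labels.

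Knockout and control were compared with limma 3.58.1 (lmFit, eBayes; R 4.3.3) over all 12188 genes, with no covariate and Benjamini-Hochberg adjustment. The fit was tested on simulated data. Named genes were the 9 genes and, for each, the gene with the highest Pearson's r over the 9 arrays, of which only the 2 with the highest r are printed, to keep identifiers without a symbol few. The genes and lists were chosen with earlier results of these data known. Alternatives took sex as a covariate, used males only, changed the scaling (quantile, median), dropped the dimmest 50% of genes, changed the spread model (trend and robust, array weights, Welch statistics) or left out each array. The fits without control 4 and knockout 7 together, those against control males without 1 of them, that of the sexes without control 4, and the tests on 3 pairs of genes were added after the data were seen. Figures were drawn with matplotlib 3.10.9.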

Additional observations from a re-analysis of the deposited data

Results flagged for a closer look

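Among 18 tests for an array far from its group (9 genes in 2 groups), 2 passed, and chance flags about 1 in 20 groups. For Ptprz1, knockout 7 had 8.5 log2 units where the next knockout had 9.37, a gap of 0.853 of the range of the knockouts, above the 95% limit for 5 samples. For Ednrb, control 1 had 7.741 where the next control had 7.911, a gap of 0.9 of the range of the controls, above the 95% limit for 4 samples. Without control 1 the Ednrb difference was 0.22 log2 units with a limma adjusted p of 0.166. For Fabp7 the deviation of control 4 from the mean of controls 1 to 3 was -0.90 log2 units, with a range of 0.21 among those 3, and it did not pass this measure.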

How the results depend on the processing

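No paired analysis was possible because the groups share no replicate number and no source used here gives the litters. Against all controls, or with sex as a covariate or males only, 8 of the 9 genes kept their direction under every alternative run. Fabp7 turned to 0.085 with sex as a covariate and with males only. Because every knockout was labelled male, the fit with sex as a covariate is the fit of 3 groups against control males. The fit of males only gives the same differences with another spread. These are therefore 1 comparison, which rests on the 2 control males. The number of the 9 genes called higher, 5 with all arrays, was 2 with sex as a covariate, 0 with males only, 3 with Welch statistics and between 3 and 6 with 1 array left out. It was 3 without control 1, control 3, knockout 9, knockout 10 or knockout 11, which each cost Slc1a3 and Ptprz1 their calls. The number called lower, 0 with all arrays, was 1 (Dbi) with the dimmest 50% of genes left out, with array weights and without both control 4 and knockout 7, and lay between 0 and 2 with 1 array left out, with 2 (Fabp7 and Dbi) without control 4. Over all genes and both directions 2997 were called. This total was 1285 with sex as a covariate, 324 with males only, 4562 with array weights and 1973 with Welch statistics. It was 1976 to 3263 with 1 array left out, and 2465 with the dimmest 50% of genes left out. By direction, 11% of all genes were called higher and 13.6% lower with all arrays, and 4.82% and 5.72% with sex as a covariate. The calls of the other fits were not split by direction. Whether the counts of the 9 genes shifted more than the calls over all genes was not tested. Tnc was among the dimmest 50% and had no value in the fit that left these genes out. Without control 3, control males against control females called 977 genes, where control 4 was the lone control male and its spread was assumed to equal that of the other groups; Fabp7 was among them (limma adjusted p = 0.0338). Fits against 1 control male alone were added after the data were seen. Without control 4 Nes turned to 0.14 and Fabp7 was -0.35, and without control 3 they were -0.68 and 0.52. The causes of these shifts were not tested. Fits that leave some arrays or genes out also hold fewer of them, and the part of this in the shifts was not tested either. The counts of the fixed gene lists were not run, since no symbols could be matched.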

Other observations

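The spread between embryos differed from gene to gene. The SD of Tnc was 2.83 times as large among the 5 knockouts (0.45 log2 units) as among the 4 controls (0.16). That of Fabp7 was 0.468 times as large (0.22 against 0.46), and 3 of the 4 controls lay within 0.21 log2 units of each other. Knockout 7 lay below the mean of the other knockouts for both Ptprz1 and Tnc, by -0.97 and -0.82 log2 units, and within 0.06 log2 units of it for Fabp7, Dbi and Prom1. Relative to controls 1 to 3, control 4 deviated by 0.53 log2 units for Nes, -0.55 for Ptprz1 and -0.39 for Dbi, against 0.05 for both Slc1a3 and Ednrb. Whether litter, dissection or stage differed for these embryos was not tested.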
